A study of Homo sapiens with 12 samples.

Results

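The 8 genes of the actin thin filament described here are the 4 muscle actins ACTC1, ACTA1, ACTA2 and ACTG2, the 2 cytoplasmic actins ACTB and ACTG1, and the pointed-end proteins LMOD2 and TMOD1. They were taken by gene name from a table of 60583 genes, and all 8 were found and passed the filter on low counts, with 21298 genes tested. The cells were cardiomyocytes of wild-type genotype derived from RUES2, an established human embryonic stem cell line. At day 50 they were placed for 3 days on electrospun fibre scaffolds, either 8% polyvinyl alcohol (PVA), the control that does not conduct, or 9.75% PEDOT:PSS/PVA, in which PVA carries a conducting polymer blend and which is called PEDOT here. All cells came from 1 line and were kept in RPMI with B27 and insulin. Each scaffold had 3 biological replicates with 2 technical libraries each, so there were 12 libraries of ribodepleted total RNA. The labels do not say that biological replicates were separate differentiations, so p-values measure the spread between these samples.

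Actin monomers polymerise into the thin filaments that myosin pulls on in the sarcomere, and into the cytoskeleton of every cell. ACTC1 encodes the cardiac and ACTA1 the skeletal alpha actin, and heart muscle contains both. ACTA2 and ACTG2 encode the smooth muscle alpha and gamma actins, and ACTA2 is also made by immature cardiomyocytes, pericytes and myofibroblasts. ACTB and ACTG1 encode the beta and gamma actins of the cytoskeleton. TMOD1, tropomodulin, caps the slow-growing pointed end of the thin filament, and LMOD2, cardiac leiomodin, binds there and lets the filament lengthen. Many actin genes are targets of serum response factor (SRF), which binds a DNA element called the CArG box.

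The stretches before the transcription start are shown because the actins are textbook SRF targets, and they were chosen with the results below known. Any part of SRF in the scaffold differences was not tested. The sequences come from RefSeq on GRCh38.p14, where 7 of the 8 members were matched by symbol (not ACTB). ACTC1 has 3 starts in that table, ACTA2 and TMOD1 2 each, and the start with the element is shown. Each line runs 5′ to 3′ on the gene's own strand, from 130 to 61 bases before a start. Capitals mark an exact CArG box or, in ACTA2 alone among these lines, the same element with 1 G or C among its 6 middle letters. The relaxed form was added after the sequences were seen.
ACTC1: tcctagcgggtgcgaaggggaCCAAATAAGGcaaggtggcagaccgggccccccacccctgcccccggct
ACTA1: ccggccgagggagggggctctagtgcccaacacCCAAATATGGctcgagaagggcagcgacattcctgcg
ACTG2: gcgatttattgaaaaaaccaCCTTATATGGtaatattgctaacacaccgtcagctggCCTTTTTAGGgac
ACTG1: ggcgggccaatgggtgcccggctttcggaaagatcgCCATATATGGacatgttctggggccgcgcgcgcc
ACTA2: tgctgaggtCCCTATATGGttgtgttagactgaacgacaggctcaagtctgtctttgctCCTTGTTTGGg
They lie at chr15:34795610-34795679 (minus strand), chr1:229434155-229434224 (minus strand), chr2:73892878-73892947 (plus strand), chr17:81512860-81512929 (minus strand) and chr10:88952834-88952903 (minus strand). In the annotation of the count table, 4 bases of the ACTG2 stretch are exonic in another transcript of that gene, and the other stretches hold no exon of theirs. The exact box begins 109 bases before the ACTC1 start, 97 before ACTA1, 110 and 73 before ACTG2 and 94 before ACTG1. Both strands were searched over the 250 bases before each start, and 407 of 35116 RefSeq promoter windows (1.16%) hold an exact box. In ACTA2 the relaxed element begins 121 and 71 bases before the start, and 2093 windows (5.96%) hold such an element. Neither form was found in the LMOD2 window, and TMOD1 had the relaxed form only. A match of letters describes the sequence and does not show a bound site.

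Library totals were 19.1 to 30.96 M counts, and the technical libraries of a replicate were summed to 6 samples of 44.5 to 57.5 M. Levels are CPM, the counts per M (mega) counts of a library after TMM scaling. Summed CPM of 12 cardiomyocyte markers was 58057 to 78768 on PVA and 66731 to 88583 on PEDOT. TTN, at a mean of 45307 CPM, held most of it. Without TTN the sum was 23545, 34024 and 30139 CPM on PVA in replicates 1, 2 and 3. On PEDOT that sum was 25844, 33848 and 31133 CPM, higher in replicates 1 and 3 and lower in replicate 2. Of these 12, MYH7, the beta myosin heavy chain, was higher on PEDOT in the paired fit described below (log2 fold change 0.95 ± 0.17, adjusted p = 0.0382). The 7 fibroblast markers summed to 620 to 2827 CPM on PVA and 642 to 5160 CPM on PEDOT. The 6 endothelial markers were low, with KDR at a mean of 15.8 CPM (paired log2 fold change -0.42 ± 0.11, adjusted p = 0.184), and the other 5, each at a mean of 0.212 to 0.568 CPM, had 2 values above 0 and 3 below, and 0 of the 6 passed. Fewer cells of a type and less RNA per cell cannot be told apart in such bulk samples.

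Per kb of exon, ACTC1 led all members at 3629 ± 660 CPM per kb (SD, n = 6 samples, as for the other levels per kb), and it ranked 5 among all tested genes on that scale. ACTA2 followed at 331 ± 85.9 and ACTB at 197 ± 50.6 CPM per kb. TMOD1 stood at 116 ± 11.6, ACTG1 at 82.2 ± 14.9, ACTA1 at 73.1 ± 22.9 and LMOD2 at 56.3 ± 16.3 CPM per kb. ACTG2 came last at 0.755 ± 0.599 CPM per kb. The lowest ACTC1 sample lay above the highest ACTA2 sample, the lowest ACTB above the highest TMOD1, and the lowest LMOD2 above the highest ACTG2. The ranges of the other neighbours in this order overlapped. The cardiac isoform thus carried 10.98 times the level per kb of the next actin. ACTA2, a smooth muscle isoform, lay above the skeletal isoform ACTA1. The lengths, from 1495 bases for ACTA1 to 3811 for ACTG2, cover all annotated exons of a gene and not 1 transcript. The folds between genes and the isoform shares below depend on them. By CPM without length, LMOD2 (rank 1192 among tested genes) lay above ACTA1 (rank 1848), and the other members kept their order.

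**Figure D1:**
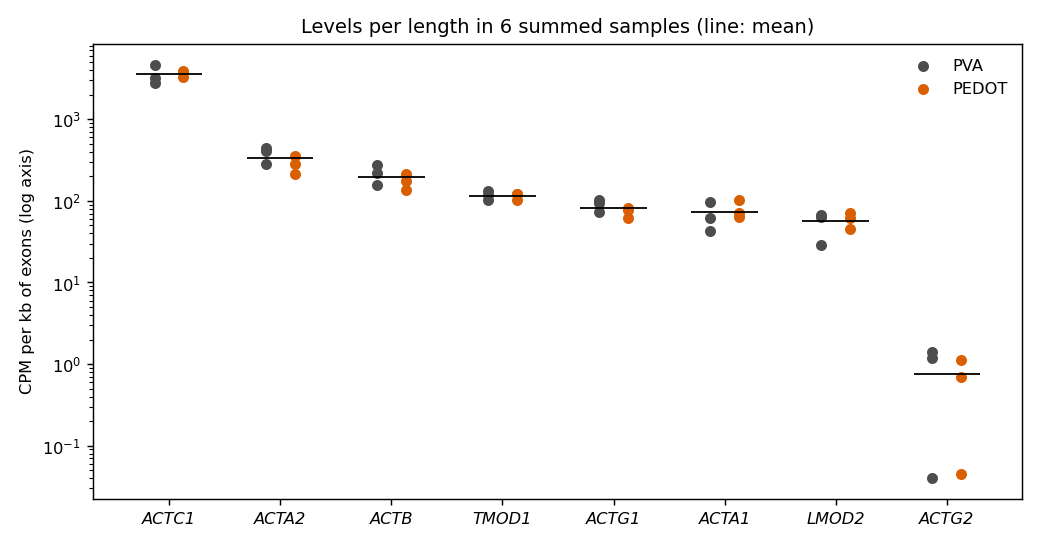
Level of each gene in CPM per kb of exon (log axis) in the 6 summed samples, 3 per scaffold, with the mean as a line. ACTC1 lies at 2813 or more in every sample and ACTG2 below 1.42, and the scaffolds overlap for every gene.

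PEDOT was compared with PVA first without regard to replicate number. In that edgeR quasi-likelihood test 0 of 21298 genes passed an adjusted p of 0.05 (0%), 190 had an unadjusted p under 0.05, and no member passed (adjusted p 1.00 for each). The samples of 1 scaffold lay all above or all below those of the other for 979 genes (4.6%) and for 0 of the 8 members. Same-numbered samples of the scaffolds resembled each other in these same counts, so the test was also run with the number as a block, which is called the paired fit. There 42 genes were lower on PEDOT (0.197%) and 15 higher (0.0704%), and 1771 had an unadjusted p under 0.05. ACTA2 was the member that passed, and it was lower on PEDOT.

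ACTA2 (chromosome 10, 88935074 to 88991339, minus strand, hg38) stood at 1306, 831 and 1223 CPM on PVA in replicates 1, 2 and 3. On PEDOT it stood at 1054, 637 and 852 CPM. The scaffolds overlapped, but each PEDOT sample lay below the PVA sample of its number, by 0.31, 0.38 and 0.52 on the log2 scale. In the paired fit the log2 fold change was -0.40 ± 0.07 (SE, 3 pairs), a 0.755-fold level, with adjusted p = 0.0334. Within every number both PEDOT libraries lay below both PVA libraries, as for ACTB and ACTG1 and for 347 of all tested genes (1.63%). The call did not hold without pair 2 (adjusted p = 0.187) or pair 3 (0.0847). It was also lost without 1 of 7 single libraries: library 3 of PVA replicate 1 (0.108), library 2 of PVA replicate 2 (0.0616), library 1 of PVA replicate 3 (0.0623), library 2 (0.208) or 3 (0.0551) of PEDOT replicate 1, and library 1 (0.0516) or 3 (0.0570) of PEDOT replicate 3. With DESeq2 and the block the adjusted p was 1.84e-05, and with upper-quartile scaling 0.0798.

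ACTA2 shares 401 exonic bases with AL157394.3 on its own strand, where reads were left out of the count, and 896 with ACTA2-AS1 and FAS on the other strand, which the stranded counting separates. Of 10 smooth muscle and pericyte markers, RGS5, a regulator of G protein signalling abundant in pericytes, was lower in the paired fit (log2 fold change -0.46 ± 0.06, adjusted p = 0.00795), and the other 9 did not pass. Summed CPM of that list was 1257, 781 and 1014 on PVA and 1194, 693 and 878 on PEDOT, lower on PEDOT in each pair. Without RGS5 the sum was 739, 518 and 656 CPM on PVA and 814, 499 and 625.05 on PEDOT, higher in pair 1 and lower in the other pairs. In the paired fit 5 of the 10 markers were below 0 and 5 above, with a median of -0.0090. Fibroblast markers lay on the other side, with sums of 2827, 620 and 2473 CPM on PVA and 5160, 642 and 2768 on PEDOT, and 6 of 7 were above 0 (median 0.37), although 0 passed. The part of these cells in the ACTA2 difference was not tested.

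The cytoplasmic actins lay on the same side without passing. ACTB (chromosome 7, 5527148 to 5563784, minus strand) gave 946, 542 and 753 CPM on PVA against 723, 466 and 598 on PEDOT. Its paired log2 fold change was -0.31 ± 0.07 with adjusted p = 0.0970. ACTG1 (chromosome 17, 81509971 to 81523847, minus strand) gave 278, 216 and 302 CPM on PVA against 236, 182 and 226 on PEDOT. Its paired log2 fold change was -0.30 ± 0.07 with adjusted p = 0.0985. Both missed the threshold in edgeR and passed it in DESeq2 with the block (0.00258 for ACTB and 0.0116 for ACTG1). ACTG1 also passed without pair 1 (adjusted p = 0.0296), where 170 of all tested genes passed against 57 in the paired fit. It did not pass without pair 2 (0.273) or pair 3 (0.411). ACTB passed without library 1 of PEDOT replicate 2 (0.0341), 1 of 12 single libraries left out in turn. ACTB shares 4.84% of its 50-base stretches with other transcripts, led by the pseudogene ACTBP2 (2.39%), and ACTG1 2.3%, so part of their reads may have been left out as matching several places.

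The striated muscle actins ACTC1 and ACTA1 had the same sign in each pair, but the pairs differed in sign, and neither gene passed, nor did ACTG2. ACTC1 (chromosome 15, 34790230 to 34795549, minus strand) gave 6442, 7427 and 10689 CPM on PVA and 8787, 7465 and 9053 on PEDOT. Replicate 1 was higher on PEDOT, replicate 3 lower and replicate 2 nearly level, and the paired log2 fold change was 0.07 ± 0.11 (adjusted p = 0.927). ACTA1 (chromosome 1, 229431245 to 229434098, minus strand) gave 63.4, 91.7 and 144 CPM on PVA and 154, 95.55 and 107 on PEDOT. Its within-pair log2 differences were 1.28, 0.06 and -0.44, and the paired log2 fold change was 0.29 ± 0.21 (adjusted p = 0.796). Without pair 3 the ACTA1 value was 0.67 with adjusted p = 1.04e-07 in a fit whose prior on the dispersion was infinite, and without pair 1 it was -0.19 (0.499), so its direction depended on which pairs were used. Of 11 genes listed as skeletal muscle markers 6 were tested and 0 passed. Their mean levels were 301 CPM for CKM, 45.2 for ACTN3, 1.58 for TNNT3, 1.41 for MYOD1, 1.39 for MYH3 and 0.442 for MYOG. Which cells made these transcripts, cardiomyocytes included, cannot be told from bulk samples. Of the 5 not tested, MYF5 and PAX7 had 0 counts in every sample, and MYH1, MYH2 and MYH8 had at most 20 in a sample. ACTG2 (chromosome 2, 73892314 to 73919865, plus strand) gave 4.59, 0.15 and 5.39 CPM on PVA and 4.29, 0.17 and 2.66 on PEDOT, with a paired log2 fold change of -0.50 ± 0.22 (adjusted p = 0.576).

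The pointed-end proteins did not pass either. LMOD2 (chromosome 7, 123655866 to 123664290, plus strand) gave 76.8, 169 and 181 CPM on PVA and 121, 163 and 192 on PEDOT. The paired log2 fold change was 0.22 ± 0.10 (adjusted p = 0.595), and replicate 1 held most of it, at 0.65. TMOD1 (chromosome 9, 97501180 to 97601743, plus strand) gave 374, 482 and 430 CPM on PVA and 380, 451 and 449 on PEDOT. Its paired log2 fold change was -0.0037 ± 0.066 (adjusted p = 0.996), the smallest in size of the 8, and its sign changed with upper-quartile scaling (0.011). TMOD1 overlaps TSTD2 on the other strand over 1664 exonic bases.

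**Figure D2:**
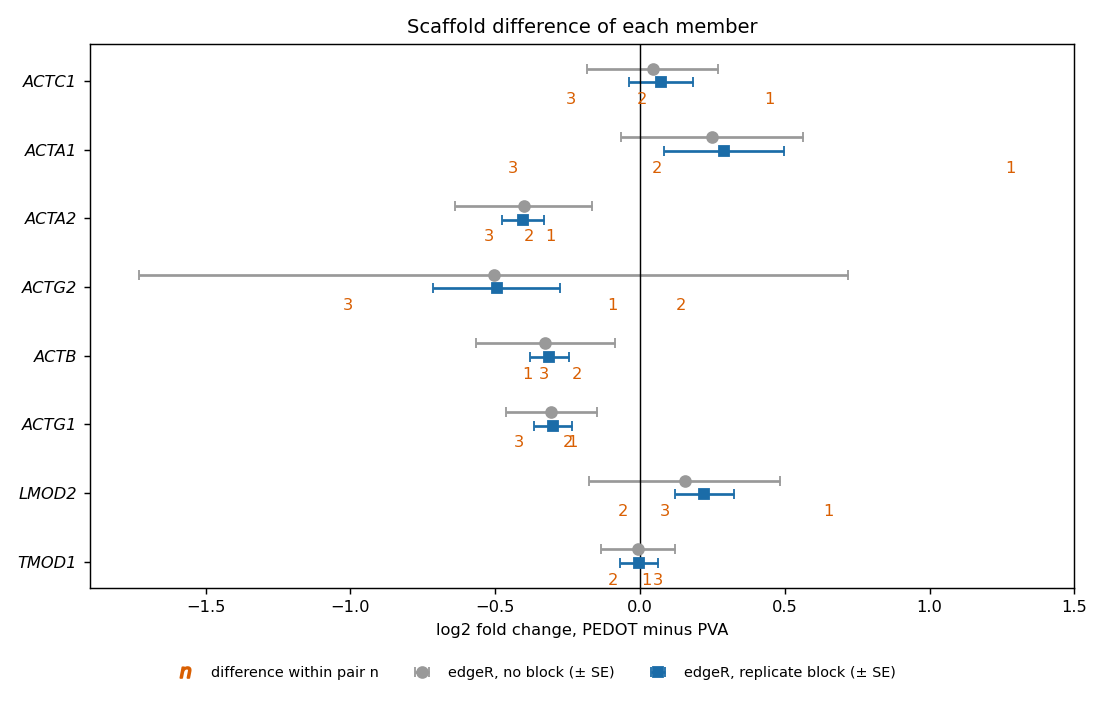
Log2 fold change of PEDOT minus PVA for each gene from edgeR without the block (grey) and with it (blue), ± SE, with the difference within each replicate number as a digit. ACTA2, ACTB and ACTG1 have all 3 digits below 0, and those of ACTA1 run from -0.44 to 1.28.

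The members were next compared between replicate numbers. With the scaffold as a covariate, 7 of 8 members differed between replicate numbers at an adjusted p of 0.05, beside 6776 of all tested genes (31.8%). ACTG2 differed most (adjusted p = 3.87e-07), with means of 4.44, 0.162 and 4.02 CPM in numbers 1, 2 and 3, which is 27.4-fold between the highest and the lowest. In number 2 it rested on 1 to 7 counts per library, against 60 to 214 elsewhere. ACTB had means of 834, 504 and 676 CPM (adjusted p = 5.48e-05) and ACTA2 of 1180, 734 and 1038 CPM (1.02e-04), both lowest in number 2. ACTG1 was also lowest in number 2, at 257, 199 and 264 CPM (0.00276).

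LMOD2 and TMOD1 were lowest in number 1 instead. So were 10 of the 12 cardiomyocyte markers, with 1 lowest in number 2 and 1 in number 3. The summed CPM of those 12 had means of 62394, 82217 and 80576 in numbers 1, 2 and 3. LMOD2 had means of 98.7, 166 and 187 CPM (adjusted p = 1.36e-04), and TMOD1 of 377, 467 and 440 CPM (0.0244). ACTC1 was highest in number 3, at 7614, 7446 and 9871 CPM (0.0431), and that call was lost in 4 of 6 alternatives: upper-quartile scaling (0.0694), library size only (0.0666), genes of mean CPM 5 or more (0.0851) and the higher-numbered libraries (0.0921). The TMOD1 call was lost with the lower-numbered libraries (0.0511). ACTA1 did not pass (0.345). Of the 7 fibroblast markers 6 were lowest in number 2 as well, and their sum, mostly COL1A1 and COL3A1, had a mean of 631 CPM there against 3993 and 2621 in numbers 1 and 3. POSTN was highest in number 2, at 14.8, 43.2 and 17.8 CPM in numbers 1, 2 and 3. Of the 10 smooth muscle and pericyte markers 8 were lowest in number 2, among them MYH11, the smooth muscle myosin heavy chain (47.7, 4.87 and 44.3 CPM), and LMOD1 (98.6, 127 and 96.6 CPM) and SMTN (26.3, 36.3 and 29.3 CPM) were highest there. The shares of all tested genes that were lowest in number 1 or in number 2 were not counted, so these marker counts have no background beside them. The part of other cell types in the actin levels of number 2 was not tested.

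**Figure D3:**
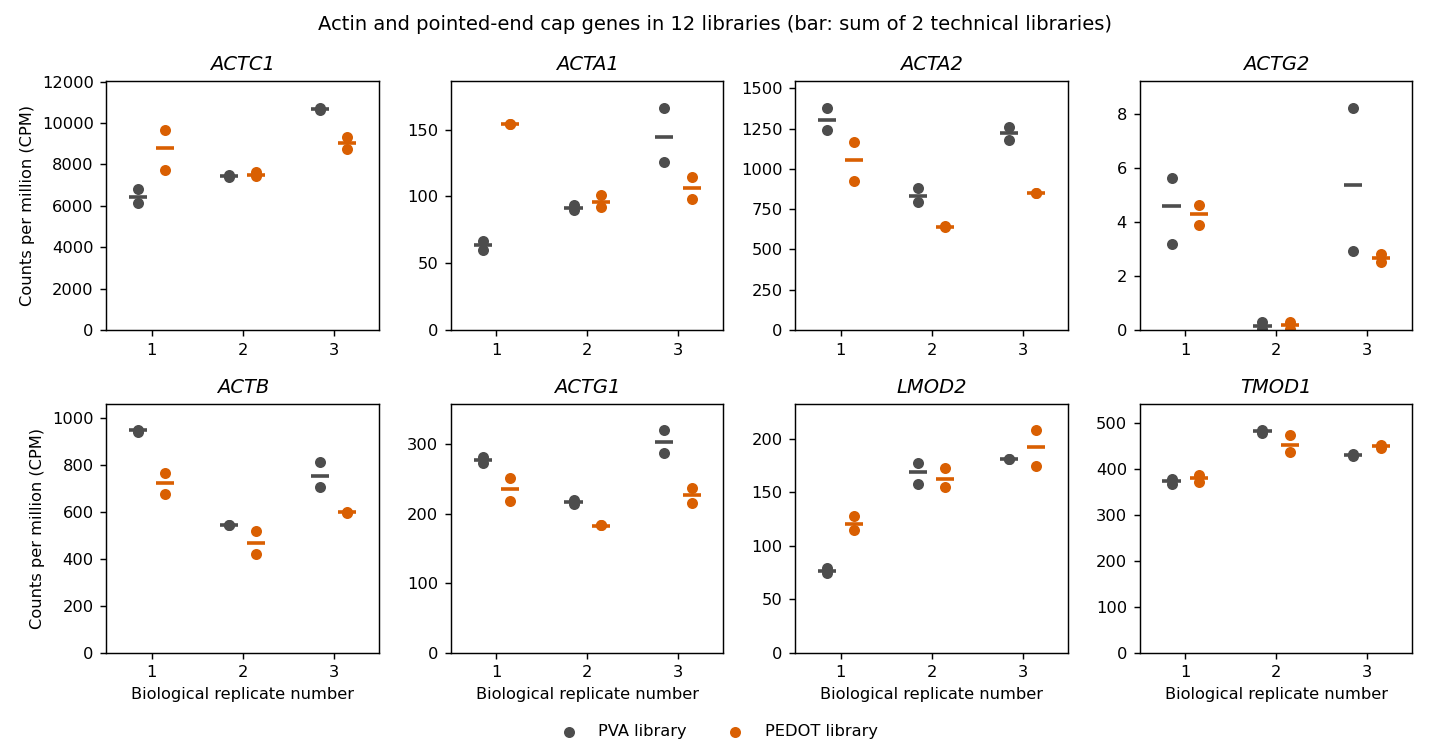
CPM of each gene in the 12 libraries by replicate number (points) and in the 6 summed samples (bars), each panel from 0. ACTG2 is near 0 in number 2 on both scaffolds, and ACTA2 is lower on PEDOT in every number.

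Technical libraries of a sample differed by a median of 0.03 (TMOD1) to 0.16 (LMOD2) on the log2 scale for 7 members, and by 1.14 for ACTG2. Over the 12 libraries, replicate number took 91.0% of the log2 CPM variance of TMOD1, 90.4% of ACTG2, 79.9% of LMOD2 and 71.9% of ACTB. The scaffold took its highest shares in ACTG1 (38.5%), ACTA2 (32.7%) and ACTB (21.1%). ACTA1 stood apart, with 67.6% in the combination of number and scaffold, and ACTC1 had 31.2% there. These shares are a description, with no test.

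**Figure D4:**
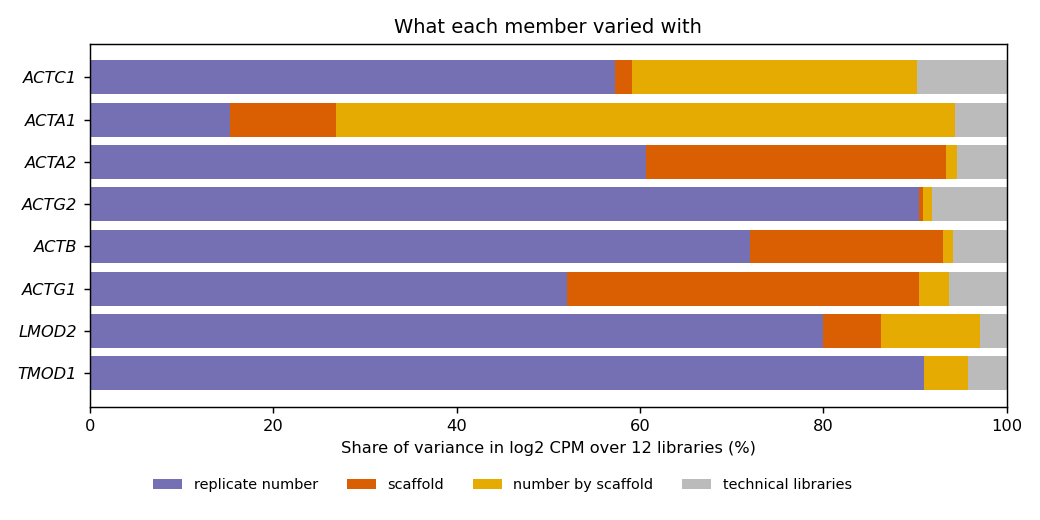
Share of the variance in log2 CPM over 12 libraries taken by replicate number, scaffold, their combination and technical libraries, in percent, for each gene. Replicate number takes 51.98% or more in every gene but ACTA1, where the combination takes 67.6%.

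Across the 12 libraries, which stem from 6 samples and share number and depth, log2 CPM of ACTA2 followed that of ACTB (r = 0.93) and of ACTG1 (r = 0.93), and ACTC1 followed ACTA1 (r = 0.81). LMOD2 went with TMOD1 (r = 0.78), and ACTB ran against TMOD1 (r = -0.81). The 3 other genes most like each member, among 11789 with a mean of 5 CPM or more, were ADAMTS15, PPTC7 and CSRP3 for ACTC1 (r = 0.93 to 0.90) and MRPL35, ACOT9 and ERCC8 for ACTA1 (0.92 to 0.90). For ACTA2 they were DEGS1, MIDN and IFITM2 (all 0.95), and for ACTG2 MYRF, ANO4 and KIRREL1 (0.99 to 0.98). For ACTB they were IFITM2, TMSB10 and NTN1 (0.96 to 0.95), and for ACTG1 LIMD2, SHISA5 and ACP2 (0.96 to 0.94). LMOD2 was most like HSDL2, LSMEM2 and NEK10 (0.97 to 0.96), and TMOD1 like EIF4EBP2, ACSL1 and GPC1 (all 0.98). IFITM2 stood on the lists of both ACTA2 and ACTB.

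The balance between isoforms was compared as shares of counts per kb, by an exact two-sided permutation test over the 20 assignments of the 6 samples, which cannot go below p = 0.1. ACTA2 made up 9.68% ± 3.15 of the 4 muscle actins on PVA and 6.98% ± 1.13 on PEDOT (SD, n = 3, exact p = 0.3), lower on PEDOT in 3 of 3 pairs. The 4 muscle actins made up 92.6% ± 2.40 of the 6 actins on PVA and 94.3% ± 0.557 on PEDOT (exact p = 0.3), higher in 3 of 3 pairs. ACTA1 was 1.79% ± 0.278 of ACTA1 plus ACTC1 on PVA and 2.10% ± 0.448 on PEDOT (exact p = 0.5). The share of ACTB in ACTB plus ACTG1 was 70.2% ± 3.66 and 70.1% ± 1.99 (exact p = 1). LMOD2 was 30.4% ± 7.57 of LMOD2 plus TMOD1 on PVA and 33.5% ± 3.35 on PEDOT (exact p = 0.6), higher in 3 of 3 pairs, by 8.37, 0.563 and 0.383 percentage points. LMOD2 and TMOD1 together came to 4.78% ± 1.02 and 4.71% ± 0.885 of ACTC1 plus ACTA1 (exact p = 0.9), and ACTG2 to 0.210% ± 0.173 and 0.194% ± 0.154 of ACTA2 plus ACTG2 (exact p = 0.8). Adjusted over the 7 shares every p was 1. For the 3 shares with 1 direction in all pairs the exact sign-flip test over pairs gave p = 0.25, the smallest it can give.

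The 9 lists of other actin genes stand beside the members, and 0 of their genes passed in either fit. In the paired fit the 6 monomer-binding genes all had values below 0 (median -0.16, against -0.0037 over all tested genes), among them PFN1, profilin (-0.31 ± 0.06, adjusted p = 0.0703), and TMSB10, a thymosin beta (-0.22 ± 0.06, 0.248). The 8 genes of the Arp2/3 complex, which starts branched filaments, were also all below 0 (median -0.0975), led by ACTR3 (-0.18 ± 0.07, adjusted p = 0.432) and ARPC2 (-0.14 ± 0.06, 0.559). Of the 14 SRF target genes of smooth muscle and cytoskeleton 12 were below 0 (median -0.14), with ACTN1, a non-muscle alpha-actinin (-0.30 ± 0.06, adjusted p = 0.0970), and TAGLN, transgelin (-0.30 ± 0.10, 0.413). SRF and its cofactors lay near 0 (5 of 6 below, median -0.0197), with FHL2 at 0.16 ± 0.07 (adjusted p = 0.590) and MRTFA at -0.06 ± 0.06 (0.889).

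Barbed-end capping genes were below 0 in 7 of 8 cases (median -0.10), with CAPZA1 at -0.18 ± 0.06 (adjusted p = 0.418) and CAPZB at -0.18 ± 0.06 (0.435), subunits of capping protein. Severing genes were below 0 in 5 of 7 (median -0.12), with CFL1, cofilin, at -0.22 ± 0.06 (adjusted p = 0.265) and CORO1C, a coronin, at -0.16 ± 0.06 (0.490). Formins, which lengthen filaments at the barbed end, were below 0 in 6 of 10 (median -0.036), with DIAPH3 at -0.73 ± 0.20 (adjusted p = 0.235) and FMNL2 at -0.22 ± 0.09 (0.509). The other pointed-end genes split, 3 of 5 below 0 (median -0.039), with LMOD3 at 0.30 ± 0.10 (adjusted p = 0.352) and TMOD2 at -0.21 ± 0.07 (0.390). The nebulin family and Xin proteins, which bind along thin filaments or at their anchoring sites, were above 0 in 5 of 6 (median 0.13), with XIRP2 at 0.38 ± 0.10 (adjusted p = 0.216) and NRAP at 0.21 ± 0.09 (0.576).

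**Figure D5:**
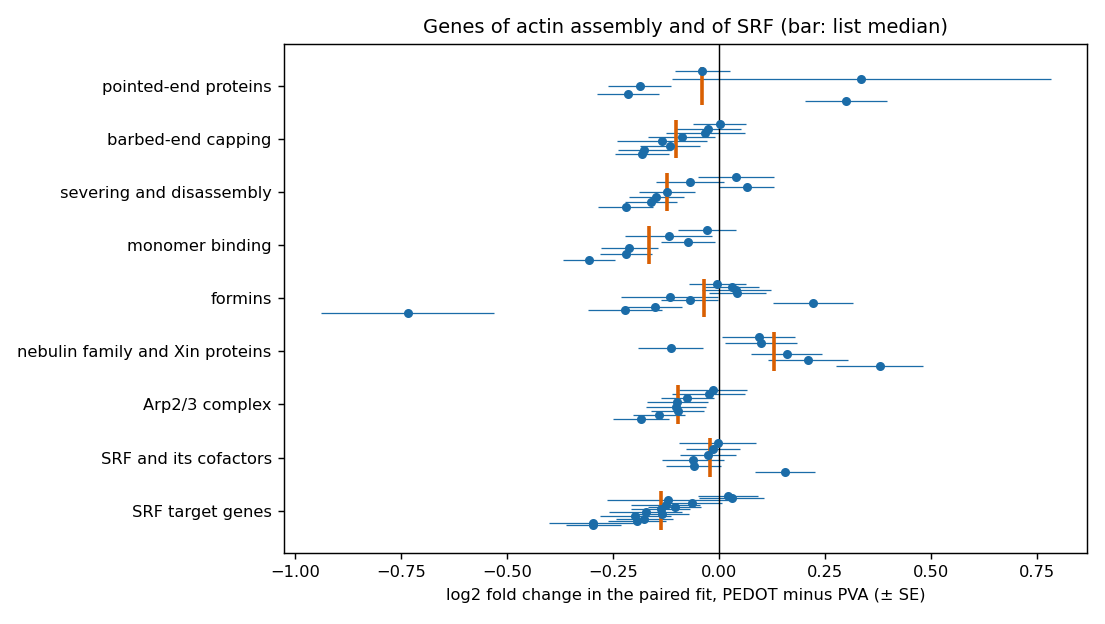
Paired log2 fold change of PEDOT minus PVA (± SE) for the tested genes of 9 lists of actin assembly and SRF, with each list's median as a bar. The monomer-binding and Arp2/3 genes all lie below 0, and no gene passed an adjusted p of 0.05.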

How the data were processed

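Cells were detached with trypsin, lysed in QIAzol and cleaned up on RNeasy columns, and total RNA was ribodepleted, per the labels' protocols. The authors deposited raw, unscaled counts: read pairs summed by gene name, from featureCounts 2.0.1 (paired-end, strand setting 2, GENCODE release 33), per the file headers. The deposited gene length in bases, which covers all annotated exons of a gene, gave levels per kb. The command leaves out pairs that match several places or several genes, which can lower counts of actins with near-identical copies. Also named in the submitters' processing notes are STAR, FastQC, edgeR, DESeq2 and hg38, and the aligner's version is not given in the sources used here.

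Technical libraries were summed to 3 samples per scaffold. The filter was filterByExpr with a minimum count of 10 and a minimum total of 15, scaling was TMM, and the test was the two-sided quasi-likelihood test of edgeR 4.0.16 (R 4.3.3), with Benjamini-Hochberg adjustment over 21298 genes and a threshold of 0.05. SE is |log2 fold change| over the root of F. Log2 CPM used a prior count of 2. The main test has the scaffold as its only term. Deviations of same-numbered samples from their scaffold means correlated at 0.678, 0.703 and 0.503 and those of different numbers at -0.609 to -0.005. Deviations from a mean of 3 sum to 0, so negative values between different numbers follow from the positive ones and add no support. The numbers were taken to pair the samples on the same-numbered values. No label says that a number marks a shared culture, and the pairing was read from the same counts that the paired fit tests. Alternatives were DESeq2 1.42.0, other scaling and filters, single technical libraries and leaving out samples, pairs or libraries. Shared stretches of 50 bases were counted against GENCODE 29 transcripts, leaving out genes at the same place. Named genes are the 8 members, the 3 genes most correlated with each, and per list those that passed and the 2 of smallest paired p; other markers were chosen after their values were seen. Members and lists were chosen with earlier results of these data known.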

Additional observations from a re-analysis of the deposited data

Results flagged for a closer look

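In 3 genes both PEDOT libraries lay above both PVA libraries in 1 replicate number and below both in another. For ACTA1 the log2 difference of PEDOT minus PVA was 1.28 in number 1 and -0.45 in number 3, which are 1.73 apart. For ACTC1 it was 0.42 in number 1 and -0.24 in number 3, which are 0.67 apart. For TMOD1 it was 0.06 in number 3 and -0.08 in number 2, which are 0.14 apart. These differences between numbers were not tested, since technical libraries of 1 sample are not independent replicates. The share of all tested genes with such an order was not counted, so whether 3 of 8 members is unusual is not known. Of 16 groups of 6 libraries (8 genes on 2 scaffolds), 0 held a library far from the others by Dixon's criterion. Each group holds both technical libraries of a sample, so the criterion could flag a single library but hardly a whole sample.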

How the results depend on the processing

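Without the block no member passed under any of the 13 other settings run, and with the replicate block 1 did. In the paired fit the count of members that passed was 1, beside 57 of all 21298 tested genes. It was 0 without the block (0 of 21298), 0 with upper-quartile scaling (1 of 21298) and 0 with genes of mean CPM 5 or more (1 of 11791). It was 0 with the higher-numbered technical libraries (4 of 18819), 3 with DESeq2 (97 of 21298) and 4 with every gene that had a count (389 of 39687). When a pair or a library was left out it ranged from 0 to 2, and 4 to 284 of all tested genes passed. The ACTA2 call was kept in 10 of 23 settings. Its log2 fold change was -0.40 without the block, -0.39 with upper-quartile scaling (adjusted p = 0.0798), -0.39 with genes of mean CPM 5 or more (0.128), -0.34 with the higher-numbered libraries (0.173) and -0.46 to -0.35 when a pair or library was left out. The settings with every gene or without pair 3 gave an infinite prior on the dispersion, so their small p-values rest on that prior.

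Signs near 0 were not stable. TMOD1 without the block was 0.010 with upper-quartile scaling, 0.012 with genes of mean CPM 5 or more, 0.018 with the higher-numbered libraries and -0.097 to 0.089 when a sample was left out. In the paired fit it was 0.011, 0.013, 0.020 and -0.038 to 0.042. ACTC1 was -0.011 with the lower-numbered libraries, and -0.10 to 0.28 (no block) or -0.11 to 0.23 (paired) under leaving out. Under leaving out, ACTG2 ran from -1.25 to 0.040 and LMOD2 from -0.15 to 0.36 without the block, and ACTA1 from -0.19 to 0.67 in the paired fit. With the lower-numbered libraries the share differences, in percentage points, were 0.00989 for ACTG2 of ACTA2 plus ACTG2, 0.517 for ACTB of ACTB plus ACTG1 and 0.0866 for the pointed-end proteins against the striated actins. Leaving out a sample gave -0.115 to 0.0698, -1.24 to 2.00 and -0.523 to 0.480 for these, and -1.10 to 6.23 for LMOD2 of LMOD2 plus TMOD1. The cause of these changes was not tested. Between replicate numbers, 5 to 8 members passed under 6 settings. The 5 came from genes of mean CPM 5 or more, where ACTG2 was not tested and 4781 of all 11791 genes passed. The 8 came from every gene with a count, with the infinite prior, where 7702 of 39687 passed. The other settings gave 6 members, beside 4971 of 18819 genes (higher-numbered libraries) to 6703 of 21298 (library size only). ACTG2 in number 2 is limited by its counts.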
